A study of Mus musculus with 9 samples.

Results

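This section follows 35 marker genes of macrophages and monocytes in the heart, chosen by name from a list of resident and recruited cardiac macrophage markers, among the 13192 genes with deposited counts. All 35 were in the table. The list was not chosen by measured values, but it was drawn up with earlier results of these data known. The RNA is from the apex of hearts of male C57BL/6J wild-type mice, which received 1e+11 viral particles of an adeno-associated virus (AAV) in the right gastrocnemius, a calf muscle, at 10 weeks of age, and whose hearts were taken 12 weeks later. AAV-Osm, the vector of oncostatin M, a cytokine of the interleukin-6 family, is represented by 5 samples and the control vector AAV-Null by 4. The vector was placed in the leg, and the sources used here do not name the promoter that drives the gene. Whether each of the 9 samples is its own mouse is not stated, and the p-values describe the spread between samples, which may be technical. Total counts ran from 11841106 to 30625134 per library, of which the 35 markers took 9843 to 28810, and the smallest count of any marker in a library was 4, for Ly6c2.

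Macrophages are the most numerous leukocytes of the resting heart. A resident population, marked by Lyve1, Timd4, Folr2, Cd163 and Mrc1, is seeded largely before birth, renews itself locally and clears debris from heart muscle cells, while Ccr2-bearing macrophages are replenished from blood monocytes drawn in by chemokines such as the product of Ccl2. Macrophages depend on the growth factor receptor encoded by Csf1r and on the transcription factor PU.1, encoded by Spi1. In RNA from whole tissue, fewer cells of a type and less RNA per cell cannot be told apart.

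The macrophage signature was present in every library, and no marker separated AAV-Osm from AAV-Null hearts at the adjusted threshold. In edgeR's quasi-likelihood test 0 of 35 markers rose and 0 fell at an adjusted p under 0.05. Over all genes 0.121% passed, 0.0834% higher and 0.0379% lower. In DESeq2 the count was 0 as well, beside 0.402% of all genes. The smallest adjusted p among the 35 was 0.518, for Lyve1. At an unadjusted p under 0.05 edgeR gave 1 marker higher (Ccr2) and 1 lower (Lyve1), beside 2.89% of all genes higher, 3.09% lower and 5.97% in either direction, and DESeq2 gave the count 2, beside 6.28%. In limma-voom with quality weights 1 marker passed, Lyve1, which was lower (adjusted p = 0.0373), beside 1.29% of all genes (0.69% lower). At an unadjusted p under 0.05 that tool gave 6 of the 35, beside 25.2% of all genes. None of the 35 had groups that did not overlap, a pattern seen in 2.28% of all genes. The markers' log2 fold changes (AAV-Osm over AAV-Null) had a median of -0.085 and ran from -0.74 to 0.54, and 62.9% were below 0, against a median of 0.009 and 48.1% over all genes. For 31 of the 35 the 95% interval of the fold change lay within 2-fold in either direction. The other 4 were Lyve1, Ccr2, Ly6c2 and Tyrobp.

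**Figure D1:**
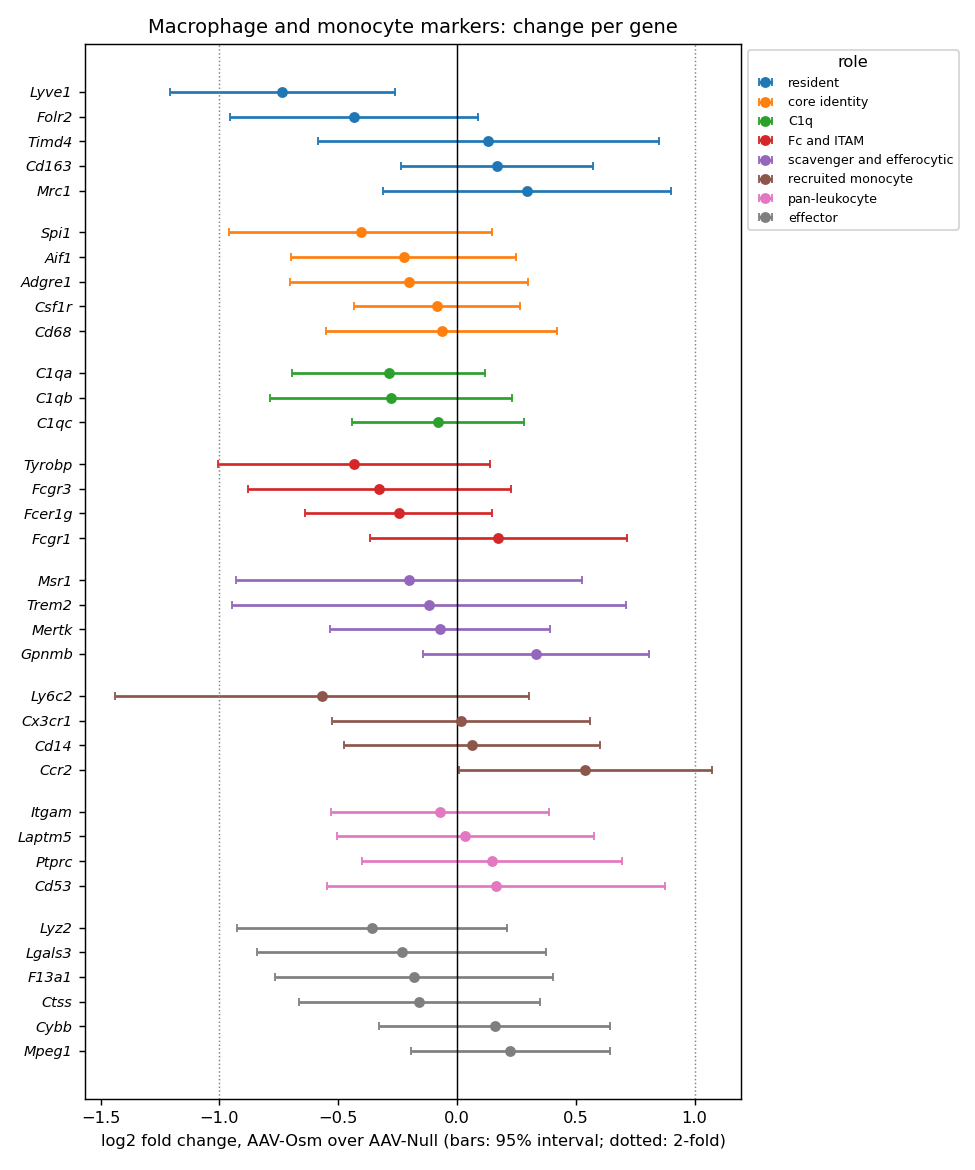
Log2 fold change of each of the 35 markers (x axis, AAV-Osm over AAV-Null, edgeR) with its 95% interval, grouped by role (colours), with dotted lines at 2-fold. Lyve1 and Ccr2 are the markers whose intervals leave out 0, and 31 intervals lie between the dotted lines.

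The 5 resident markers did not share a direction. Lyve1 encodes a hyaluronan receptor and lies at chr7:110850607-110862953 on the minus strand (mm10). Its level was 38.0, 38.4, 29.6 and 60.2 CPM (each count as a share of the library total, scaled up to CPM and by TMM factors) in AAV-Null 1 to 4 and 26.3, 18.1, 21.5, 35.2 and 24.0 CPM in AAV-Osm 1 to 5. AAV-Osm 4 lay above the lowest control, AAV-Null 3, and the other AAV-Osm libraries lay below every control. The means were 41.5 ± 13.1 (SD, n = 4) and 25.0 ± 6.45 CPM (SD, n = 5), with a log2 fold change of -0.74 (SE 0.22, 95% interval -1.21 to -0.26, adjusted p = 0.518 in edgeR). Over all alternatives the log2 fold change ran from -0.89 to -0.49 and stayed below 0.

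Folr2, a folate receptor of tissue macrophages (chr7:101839988-101857190, minus strand), was at 17.7, 17.3, 22.4 and 41.4 CPM in AAV-Null 1 to 4 and at 22.9, 14.6, 17.4, 18.9 and 17.6 CPM in AAV-Osm 1 to 5. AAV-Null 4 alone lay far above the AAV-Osm range. The log2 fold change was -0.43 (SE 0.24, adjusted p = 0.891 in edgeR), and it was 0.06 with AAV-Null 3 and AAV-Null 4 both left out.

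Cd163, the scavenger receptor for haemoglobin bound to haptoglobin (chr6:124304651-124330527, plus strand), was at 14.7, 16.8, 15.1 and 26.6 CPM in AAV-Null 1 to 4 and at 22.6, 20.9, 17.4, 23.6 and 18.5 CPM in AAV-Osm 1 to 5. Every AAV-Osm library lay above AAV-Null 1, 2 and 3 and below AAV-Null 4. The log2 fold change was 0.17 (SE 0.19, adjusted p = 0.961 in edgeR). It was 0.40 without AAV-Null 4, 0.079 without AAV-Null 1 and 0.086 without AAV-Null 3.

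Mrc1, the mannose receptor (chr2:14229414-14332023, plus strand), was at 14.1, 13.7, 13.3 and 15.5 CPM in AAV-Null 1 to 4 and at 32.4, 11.7, 10.0, 16.1 and 16.1 CPM in AAV-Osm 1 to 5. AAV-Osm 1 was the highest library by far, while AAV-Osm 2 and 3 were the lowest. The log2 fold change was 0.29 (SE 0.28, adjusted p = 0.951 in edgeR), and it was -0.071 without AAV-Osm 1. Timd4, a receptor for phosphatidylserine on dying cells (chr11:46810799-46844333, plus strand), was scarce, at 1.81, 1.85, 1.87 and 1.37 CPM in AAV-Null 1 to 4 and at 3.27, 1.20, 0.961, 1.39 and 2.42 CPM in AAV-Osm 1 to 5. Its AAV-Osm values lay on both sides of the controls, and the log2 fold change of 0.13 (SE 0.33, adjusted p = 0.986 in edgeR) was -0.19 without AAV-Osm 1.

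**Figure D2:**
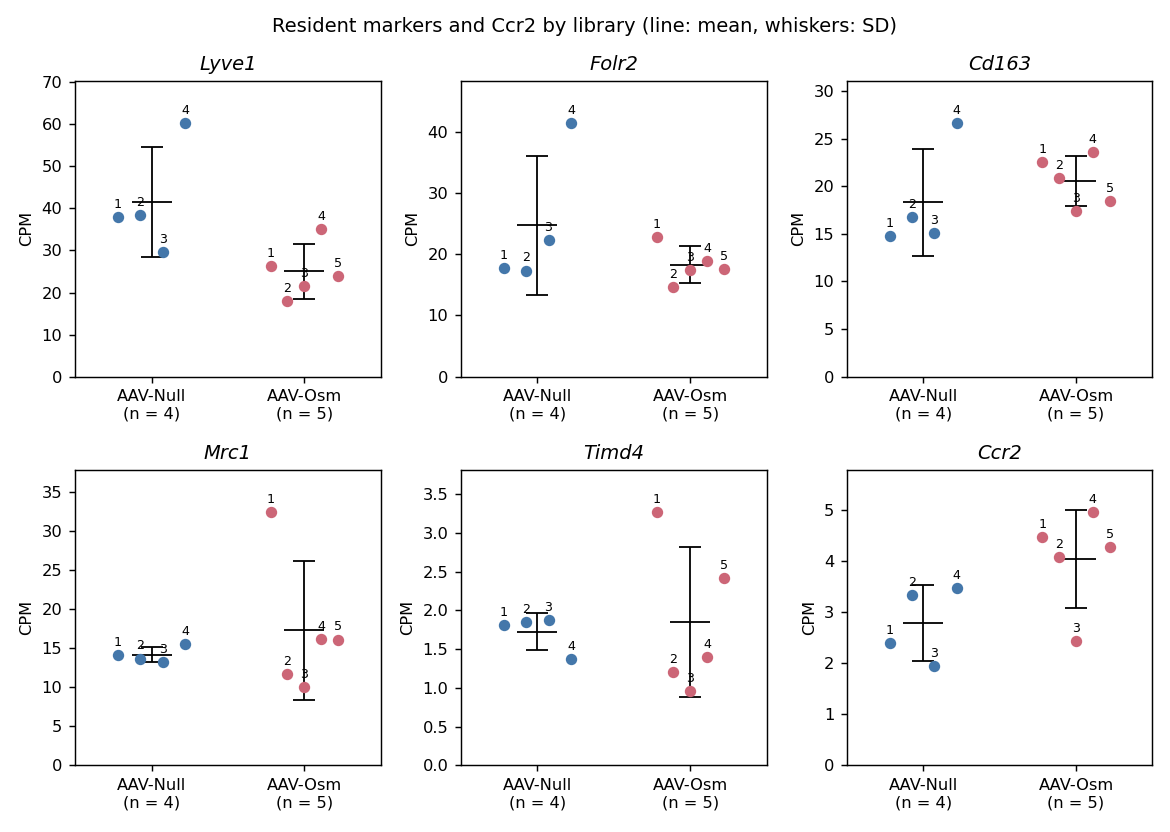
CPM of the 5 resident markers and of Ccr2 (y axes, each from 0) in every library, numbered within its group, with the group mean (line) and SD (whiskers). Lyve1 lies lower in most AAV-Osm libraries, while Mrc1 and Timd4 are highest in AAV-Osm 1.

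As a group the resident markers had 3 positive and 2 negative log2 fold changes with a median of 0.13, and the other 30 markers had 10 positive and 20 negative with a median of -0.10. Both medians turned on single libraries. Without AAV-Osm 1 the resident median was -0.19, and without AAV-Null 4 that of the other markers was 0.039. Without AAV-Null 3 and AAV-Null 4 the latter was 0.21. In limma-voom with quality weights the medians were -0.12 for the resident and 0.070 for the other markers. Per kilobase of exon, the resident markers made up 4.81% to 6.70% of the summed level of the 35 in AAV-Null libraries and 4.80% to 5.67% in AAV-Osm libraries, ranges that overlapped.

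Ratios between resident markers within a library showed how unevenly they varied. The controls, AAV-Null 1 to 4, had Lyve1 over Cd163 at 2.58, 2.28, 1.96 and 2.26, and AAV-Osm 1 to 5 had it at 1.16, 0.867, 1.24, 1.49 and 1.30, so every AAV-Osm library lay below every control. Folr2 over Cd163 was 1.20, 1.03, 1.48 and 1.56 in the controls and 1.01, 0.700, 1.0, 0.801 and 0.954 after AAV-Osm, again with no overlap but with AAV-Null 2 and AAV-Osm 1 almost touching. Lyve1 over Mrc1 ran from 2.23 to 3.88 in AAV-Null and from 0.811 to 2.18 in AAV-Osm, also almost touching. Of the 10 pairs among the 5 markers these 3 did not overlap, and the other 7 did, Lyve1 over Folr2 among them (1.32 to 2.21 and 1.15 to 1.86). The pairs share genes, and the share over all pairs of genes was not computed, so this count has no background beside it. Set against Cd163, 3 of the other 34 markers (Lyve1, Folr2 and C1qa) had ratios that did not overlap, lower in AAV-Osm in each case, beside 2.01% of all other genes (1.86% counted as lower only). Of the 265 other genes with such ratios to Cd163, 246 were lower too, so this direction was not particular to the 3 markers. These ratios were examined after the levels had been seen and are given without a test.

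**Figure D3:**
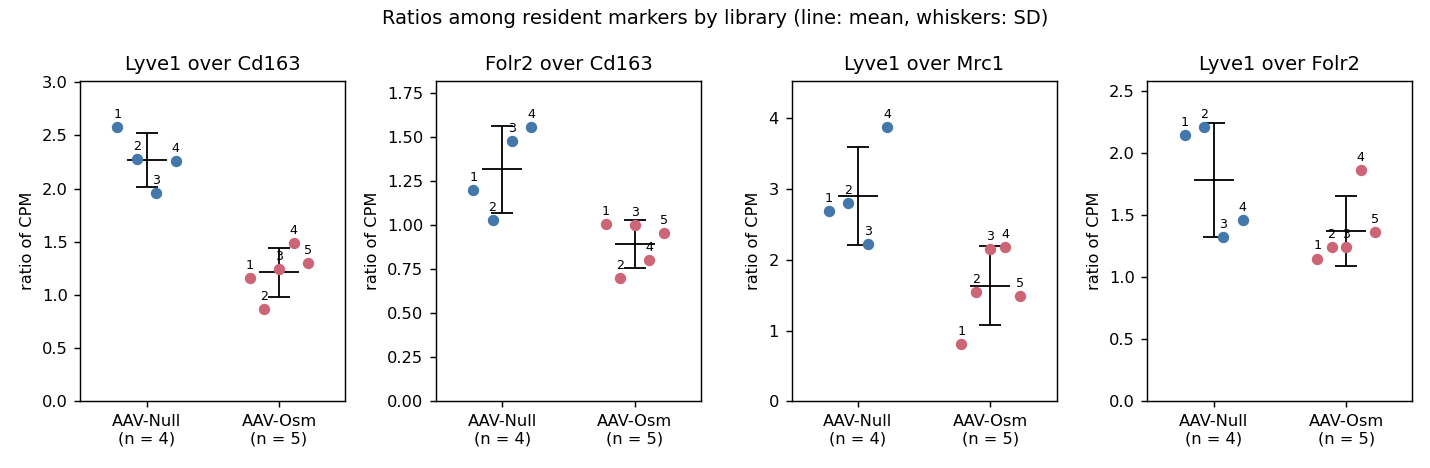
Ratio of CPM between pairs of resident markers (y axes, from 0) in every library, numbered within its group, with the group mean (line) and SD (whiskers). Lyve1 over Cd163, Folr2 over Cd163 and Lyve1 over Mrc1 do not overlap between the groups, and Lyve1 over Folr2 does. The panels were picked to show all 3 non-overlapping pairs of the 10, and of the overlapping pairs only Lyve1 over Folr2.

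Lyve1 and Mrc1 are also transcribed in lymphatic endothelial cells. Of 8 lymphatic markers 7 were in the table and 0 passed. Their summed level was 45.2 to 51.1 CPM in the controls and 43.7 to 54.9 CPM after AAV-Osm. The log2 fold changes of 5 of the 7 were positive and those of 2, Pdpn (-0.22, SE 0.27) and Thy1 (-0.092, SE 0.20), negative. The smallest p were those of Reln, reelin (0.31, SE 0.20), and Sema3a, a semaphorin (0.36, SE 0.42), and Prox1, the lymphatic lineage factor, was at 0.14 (SE 0.18). The median over the 7 genes was 0.14, which is the Prox1 value itself. Prox1 and Thy1 were the most abundant of the 7, at 13.4 and 12.8 CPM in AAV-Null, and weigh most in the sum. Which cells the RNA of these 7 genes came from was not tested. How much of the Lyve1 signal came from lymphatic vessels was not tested.

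The stretches before the transcription starts of 4 resident markers, of Ccr2 and of the complement gene C1qc are shown because PU.1, the lineage factor of these cells, binds purine-rich DNA around GAGGAA. They come from RefSeq (GRCm38.p6), run 5′ to 3′ on the gene's strand and hold the 200 bases before the start, at chr2:14229214-14229413, plus strand, for Mrc1, chr7:101857191-101857390, minus strand, for Folr2, chr6:124304451-124304650, plus strand, for Cd163, chr11:46810599-46810798, plus strand, for Timd4, chr9:124101983-124102182, plus strand, for Ccr2 and chr4:136892915-136893114, minus strand, for C1qc. Capitals mark GAGGAA or its reverse complement TTCCTC.
Mrc1: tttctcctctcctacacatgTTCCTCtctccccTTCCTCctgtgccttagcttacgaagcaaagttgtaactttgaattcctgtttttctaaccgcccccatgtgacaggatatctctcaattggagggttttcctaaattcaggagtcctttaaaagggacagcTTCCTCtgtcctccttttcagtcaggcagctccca
Folr2: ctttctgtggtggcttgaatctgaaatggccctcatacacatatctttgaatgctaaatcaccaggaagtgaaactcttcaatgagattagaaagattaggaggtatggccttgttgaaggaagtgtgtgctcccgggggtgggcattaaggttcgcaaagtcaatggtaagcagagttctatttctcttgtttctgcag
Cd163: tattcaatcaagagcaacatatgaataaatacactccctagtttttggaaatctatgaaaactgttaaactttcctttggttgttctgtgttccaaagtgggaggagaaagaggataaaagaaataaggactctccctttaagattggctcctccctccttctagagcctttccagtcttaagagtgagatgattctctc
Timd4: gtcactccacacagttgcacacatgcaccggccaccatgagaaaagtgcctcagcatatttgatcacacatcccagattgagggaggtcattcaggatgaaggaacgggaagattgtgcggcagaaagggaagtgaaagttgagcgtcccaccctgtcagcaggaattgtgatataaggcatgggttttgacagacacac
Ccr2: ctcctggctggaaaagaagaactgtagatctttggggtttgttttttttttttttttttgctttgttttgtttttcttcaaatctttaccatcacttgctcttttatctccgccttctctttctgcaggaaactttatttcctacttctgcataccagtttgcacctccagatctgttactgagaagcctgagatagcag
C1qc: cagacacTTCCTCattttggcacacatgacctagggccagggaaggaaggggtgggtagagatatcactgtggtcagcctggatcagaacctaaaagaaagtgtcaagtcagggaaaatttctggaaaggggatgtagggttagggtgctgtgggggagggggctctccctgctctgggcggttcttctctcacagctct
The Mrc1 stretch held GAGGAA or TTCCTC at 3 places and that of C1qc at 1, while those of Folr2, Cd163, Timd4 and Ccr2 held 0. The Folr2 stretch held AGGAAGT and the Timd4 stretch GGAAGT, related forms that are counted below and not marked here.

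Promoter windows of 250 bases before and 50 bases from the start on were given for 27 of the 35 markers. Adgre1, Csf1r, Cd14, Lyve1, C1qa, Tyrobp, Msr1 and Spi1 had no entry. On either strand, GAGGAA occurred in windows of 16 of the 27 (59.3%), beside 30.7% of the 10011 tested genes with an entry. The longer form GAGGAAGT, which contains it, occurred in 5 (18.5%, C1qc, Cd53, Ctss, F13a1 and Ly6c2), beside 3.65%. Overlapping forms gave 14 of 27 (51.9%) beside 31.6% for GGAAGT, 11 of 27 (40.7%) beside 10.3% for AGGAAGT, and 0 of 27 beside 0.0499% for a longer consensus of 12 bases. A gene with several entries was counted once, the 5 forms overlap each other, and a match describes letters and not binding.

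The general macrophage markers all had small negative fold changes. Csf1r, the receptor for the growth factors CSF1 and IL-34, was at 46.5 ± 11.5 CPM (SD, n = 4) in AAV-Null and 43.9 ± 4.02 CPM (SD, n = 5) in AAV-Osm, a log2 fold change of -0.085 (SE 0.16, 95% interval -0.43 to 0.26). Spi1, which encodes PU.1, had one of -0.41 (SE 0.26), Aif1, a calcium-binding protein of macrophages, one of -0.22 (SE 0.22), Adgre1, the F4/80 antigen, one of -0.20 (SE 0.23) and Cd68, a lysosomal glycoprotein, one of -0.065 (SE 0.23). The signs of all but Spi1 turned in at least 1 alternative, and the Spi1 value was -0.66 without AAV-Osm 4 and -0.22 without AAV-Null 4.

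The chains of C1q, the recognition protein of the classical complement pathway, were among the most abundant markers. Per kilobase of exon, mean levels over the 9 libraries were led by Lyz2, the macrophage lysozyme, at 209 CPM per kilobase, followed by C1qa at 88.5, C1qb at 86.2 and C1qc at 53.8. In AAV-Null and AAV-Osm hearts C1qa was at 106.5 ± 33.3 and 87.2 ± 12.7 CPM, C1qb at 101.5 ± 45.9 and 83.6 ± 12.5 CPM and C1qc at 58.5 ± 9.21 and 55.2 ± 12.0 CPM. The log2 fold changes were -0.29, -0.28 and -0.081 and did not pass. Without AAV-Null 4 they were -0.048, 0.076 and 0.035. The spread among controls exceeded the difference between the group means for each of the 3 chains.

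Of the Fc receptors and their signalling adaptors, Tyrobp, the adaptor DAP12, was at 18.2, 17.4, 24.3 and 45.9 CPM in AAV-Null 1 to 4 and at 18.8, 18.7, 18.2, 26.9 and 15.6 CPM in AAV-Osm 1 to 5. The groups overlapped apart from AAV-Null 4, and the log2 fold change was -0.44 (SE 0.27, adjusted p = 0.923 in edgeR). Without AAV-Null 4 it was -0.033. Fcgr3 and Fcer1g, a receptor for IgG and the gamma chain it shares, showed log2 fold changes of -0.33 (SE 0.26) and -0.25 (SE 0.18), and Fcgr1, the high-affinity IgG receptor, one of 0.17 (SE 0.25).

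The markers grouped here as scavenger and efferocytic, Gpnmb, Msr1, Mertk and Trem2, were scarce. Gpnmb, a glycoprotein of lipid-laden macrophages, was at 1.76, 1.48, 1.31 and 1.76 CPM in AAV-Null 1 to 4 and at 2.47, 2.07, 1.92, 1.48 and 1.85 CPM in AAV-Osm 1 to 5. All but AAV-Osm 4 lay above the controls, and the log2 fold change was 0.33 (SE 0.22, adjusted p = 0.929 in edgeR). Msr1, Gpnmb and Mertk were the lowest markers per kilobase, at 0.416, 0.471 and 0.726 CPM. Mertk, which clears dying heart muscle cells, had -0.071 (SE 0.21) as its log2 fold change, and Msr1, a scavenger receptor, one of -0.20 (SE 0.34). Trem2, a lipid-sensing receptor, ran from 1.65 to 7.87 CPM within AAV-Null and from 2.09 to 4.14 CPM within AAV-Osm, and its log2 fold change of -0.12 (SE 0.38) was 0.47 without AAV-Null 4.

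Markers listed here under recruited monocytes, a grouping not tested in these data, pointed in different directions. Ccr2, the receptor for the Ccl2 product (chr9:124102183-124109140, plus strand), was at 2.41, 3.34, 1.94 and 3.47 CPM in AAV-Null 1 to 4 and at 4.46, 4.09, 2.44, 4.96 and 4.27 CPM in AAV-Osm 1 to 5. The AAV-Osm libraries other than AAV-Osm 3 lay above every control. The means were 2.79 ± 0.738 (SD, n = 4) and 4.04 ± 0.957 CPM (SD, n = 5), with a log2 fold change of 0.54 (SE 0.25, 95% interval 0.008 to 1.07, adjusted p = 0.818 in edgeR), which ran from 0.39 to 0.67 over the alternatives. Ly6c2, an antigen of inflammatory monocytes, had a log2 fold change of -0.57 (SE 0.40) at 0.808 ± 0.268 and 0.572 ± 0.329 CPM, and reads shared with its near-identical neighbour Ly6c1 make that value uncertain. Cd14, a lipopolysaccharide co-receptor, and Cx3cr1, the fractalkine receptor, showed log2 fold changes of 0.063 (SE 0.25) and 0.015 (SE 0.25).

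Membrane proteins shared by many leukocytes were also measured. Ptprc, which encodes CD45, was at 0.15 (SE 0.25), Cd53 at 0.17 (SE 0.33), Laptm5 at 0.035 (SE 0.25) and Itgam, the integrin alpha-M chain of myeloid and natural killer cells, at -0.071 (SE 0.21) on the log2 fold change scale. Among the effector genes, Mpeg1, a pore-forming protein of the phagosome, was at 9.43, 9.02, 9.93 and 7.83 CPM in AAV-Null 1 to 4 and at 12.1, 8.23, 7.37, 13.9 and 11.4 CPM in AAV-Osm 1 to 5. The AAV-Osm libraries lay on both sides of the controls, with a log2 fold change of 0.23 (SE 0.19, adjusted p = 0.947 in edgeR). Lyz2 was at 251.9 ± 122 CPM in the controls and 196.4 ± 35.9 CPM after AAV-Osm (log2 fold change -0.36, SE 0.26), with reads possibly shared with its paralog Lyz1. Without AAV-Null 4 that log2 fold change was -0.017. Cybb, the NADPH oxidase subunit, was at 0.16 (SE 0.23), Ctss, cathepsin S, at -0.16 (SE 0.24), Lgals3, galectin-3, at -0.23 (SE 0.28) and F13a1, a clotting factor subunit of macrophages and platelets, at -0.18 (SE 0.27) on the log2 fold change scale.

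The controls differed among themselves in overall macrophage signal by more than the group means did. The summed level of the 35 markers averaged 938.0 ± 331 CPM (SD, n = 4) in AAV-Null and 799.6 ± 123 CPM (SD, n = 5) in AAV-Osm hearts. By library, the summed level of the 35 markers was 710, 703, 930 and 1409 CPM in AAV-Null 1 to 4 and 990, 707, 717, 857 and 728 CPM in AAV-Osm 1 to 5. AAV-Null 4 was the highest library for 19 of the 35 markers and AAV-Osm 1 for 9. AAV-Null 4 led in 13 of the 16 markers with up to 2000 bases of exon and in 6 of the 19 longer ones. Relative to the AAV-Null mean, the short markers had a median of 0.60 and the long ones 0.30 in AAV-Null 4 on the log2 scale, and 0.001 and 0.40 in AAV-Osm 1. All genes showed a dependence on length in AAV-Null 4 too: relative to the mean of the 9 libraries, the median was 0.21 for genes of up to about 1625 bases and -0.16 for genes of at least about 4927 bases, against -0.083 and 0.12 in AAV-Null 1. With an offset for gene length, an alternative added after the data were seen, 0 of 35 markers passed again, with a median log2 fold change of 0.12 for the resident and -0.10 for the other markers. The summed level of 8 fibroblast markers in AAV-Null 4 was 3343 CPM, above the 2185 to 2414 CPM of the other controls. Dcn (1568 CPM) and Gsn (1247 CPM) made up most of it. Dcn, Gsn, Dpt, Col3a1 and Pdgfra were the highest of the controls there, while Tcf21 (5.92 CPM) and Lum (20.5 CPM) were the lowest and Col1a1 was highest in AAV-Null 1. The sums of the endothelial, adipocyte and cardiomyocyte lists were also highest of the controls in AAV-Null 4. The summed level of 14 liver-type genes was 53.5, 68.0, 294.5 and 241.5 CPM in AAV-Null 1 to 4, high in AAV-Null 3 as well. The part of these other lists in the macrophage values was not tested.

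**Figure D4:**
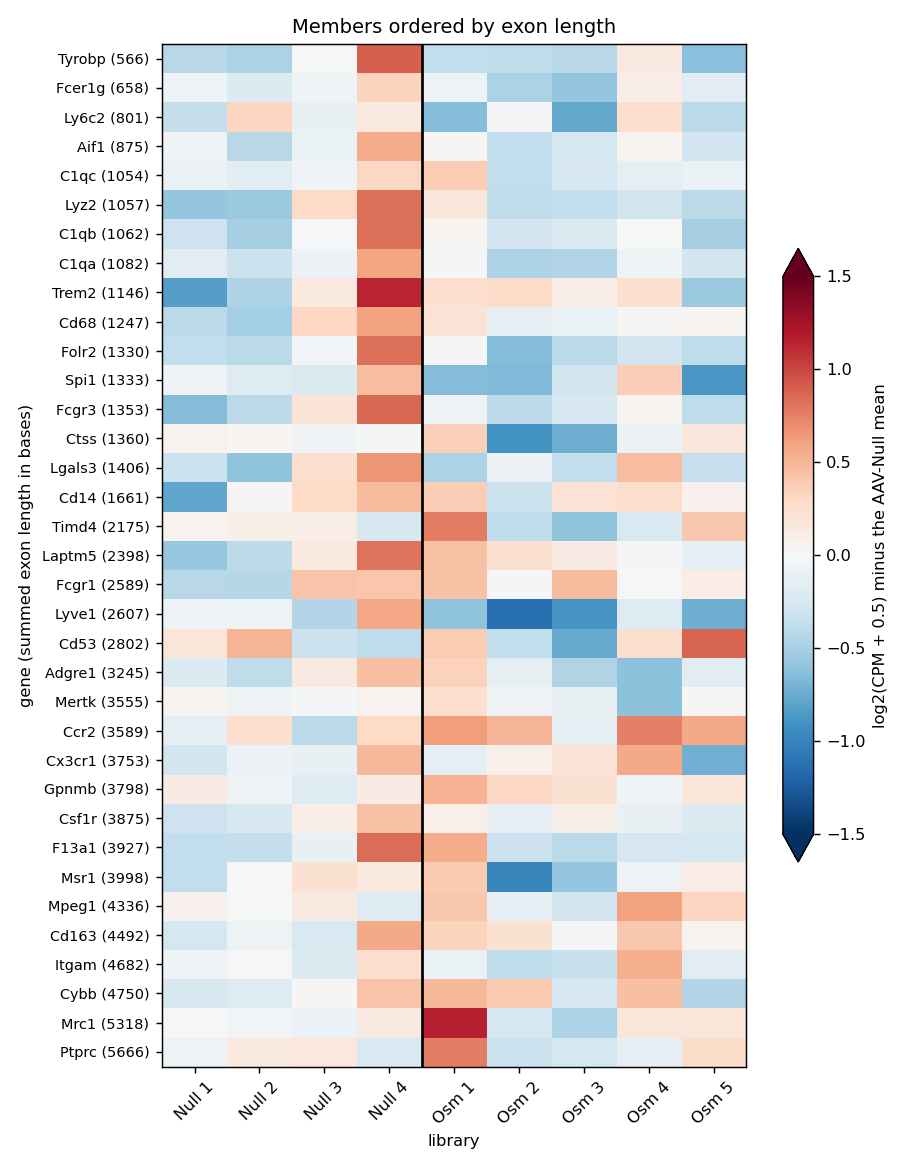
Each marker (rows, ordered by summed exon length in bases) in each library (columns, AAV-Null left of the line), coloured by log2(CPM + 0.5) minus the AAV-Null mean. AAV-Null 4 is highest mainly in the short transcripts at the top and AAV-Osm 1 mainly in longer ones.

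Genes that act on or beside these cells were examined from lists drawn up by role, with earlier results of these data known. Of 12 tested ligands of macrophages and monocytes 0 rose and 1 fell, beside 0.0834% of all genes higher and 0.0379% lower. Ccl2, the monocyte chemokine that binds the Ccr2 receptor, was at 4.31, 6.18, 5.33 and 6.02 CPM in AAV-Null 1 to 4 and at 2.31, 1.91, 1.99, 2.09 and 2.33 CPM in AAV-Osm 1 to 5, a fall of the ligand with no overlap (log2 fold change -1.35, SE 0.18, adjusted p = 0.0116 in edgeR). The Ccl2 call was lost without AAV-Null 2 (adjusted p = 0.0845 in edgeR), without AAV-Osm 2 (adjusted p = 0.0531 in edgeR) and without AAV-Null 3 and AAV-Null 4 (adjusted p = 0.0638 in edgeR), with the log2 fold change between -1.45 and -1.23 over all 20 alternatives. The growth factor genes Csf1 and Il34 showed log2 fold changes of -0.44 (SE 0.16, adjusted p = 0.663 in edgeR) and 0.005 (SE 0.17). Of 65 further genes listed as macrophage-expressed 2 rose, 0 fell and 63 did not pass, beside the same shares of all genes. Their median log2 fold change was 0.00 against 0.009 over all genes. The 2 were Csf2rb, the common beta chain of the receptors for GM-CSF, interleukin-3 and interleukin-5, at 2.17 ± 0.276 (SD, n = 4) and 16.6 ± 2.15 CPM (SD, n = 5), and its close paralog Csf2rb2, at 1.03 ± 0.257 and 3.96 ± 1.75 CPM (adjusted p of 3.62e-06 and 0.0424, edgeR). The log2 fold changes of Csf2rb and Csf2rb2 were 2.94 (SE 0.17) and 1.96 (SE 0.33), and reads that match both paralogs make the smaller one uncertain. Which cells this RNA came from was not tested. Csf2rb passed in all 20 alternatives, while Csf2rb2 lost its call in 12, among them each of the 9 that left out 1 library (adjusted p = 0.0505 to 0.187 in edgeR), with its log2 fold change between 1.58 and 2.14 over the 20. Of 17 tested monocyte genes and 14 tested genes of macrophage activation 0 passed. In the monocyte list the smallest p were those of Fn1, fibronectin (log2 fold change 0.42, SE 0.13), and Vcan, versican (-0.51, SE 0.18). These 2 of the 17 had groups that did not overlap, in opposite directions, beside 2.28% of all genes. The activation list holds genes as abundant as Lpl, at 11680 CPM in AAV-Null. Which cells the RNA of either list came from was not tested. In the activation list they were those of Apoc1, an apolipoprotein of liver and macrophages (-1.19, SE 0.79), and Tnf (-0.44, SE 0.39). Apoc1 was at 0.451, 3.13, 14.6 and 9.24 CPM in AAV-Null 1 to 4 and at 2.51, 0.545, 7.37, 4.01 and 1.14 CPM in AAV-Osm 1 to 5. Apoa2, of the liver-type list, was at 1.60, 4.53, 19.3 and 10.3 CPM and at 4.19, 1.64, 9.23, 5.31 and 2.18 CPM in the same libraries, high and low where Apoc1 was, and the part of liver-type RNA in the Apoc1 values was not tested.

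Other leukocytes were scarcely represented. Of 10 T cell markers 2 were in the table (Cd2 and Cd4), with summed levels of 1.52 to 2.74 CPM in the controls and 1.61 to 2.63 CPM after AAV-Osm, and 0 of 7 natural killer cell markers were. B cell markers (6 of 7 in the table) summed to 5.36 to 6.65 CPM in the controls and 6.88 to 10.1 CPM after AAV-Osm, dendritic cell markers (4 of 8) to 3.54 to 5.11 and 4.18 to 5.54 CPM, and neutrophil markers (4 of 8) to 6.47 to 13.9 and 5.06 to 9.58 CPM. The B cell sums did not overlap between the groups, the T cell, dendritic cell and neutrophil sums did, and none of these genes passed in edgeR. Taken singly, 1 of the 6 B cell genes and 1 of the 4 dendritic cell genes had groups that did not overlap, beside 2.28% of all genes. All 4 neutrophil genes had negative log2 fold changes, and 2 were lower at an unadjusted p under 0.05, Cxcr2, a chemokine receptor (-1.11, SE 0.43), and S100a8, a calprotectin subunit (-0.90, SE 0.36). All 6 B cell genes had positive ones, with 0 at that level, and of the dendritic cell genes 1 was higher there, Itgax (0.70, SE 0.32).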

How the data were processed

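Per the labels' protocols, mRNA libraries were made from heart apex RNA with a KAPA mRNA HyperPrep kit. The submitters' processing notes name the tools STAR 2.5.2b, Subread 1.5.1 and featureCounts and the build mm10. No source used here states the annotation, the strand setting or how multi-mapping reads were handled. The authors deposited raw counts for 13192 named genes, each above 0.5 CPM in at least 4 libraries, and scarcer genes were not analysed here. Another 4141 lines were blank. Total counts limit the precision of scarce markers.

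The tests used edgeR 4.0.16 (R 4.3.3, two-sided quasi-likelihood F test, robust dispersions, TMM scaling, filterByExpr, which removed 0 genes), with group as the only term and Benjamini-Hochberg adjustment over all genes. The SE is the log2 fold change divided by the square root of F, and intervals use the test's degrees of freedom. The script was tested on simulated data, where it recovered 6 of 50 genes changed 1.5-fold, 35 of 50 changed 2-fold and 49 of 50 changed 3-fold. A marker that did not pass may therefore still have changed by a small factor. Alternatives were DESeq2 1.42.0, limma 3.58.1 (voom with quality weights), other scalings and filters, dispersions that are not robust, a gene length offset and libraries left out. Libraries were numbered within each group in the order in which they are listed, since the labels give no replicate number, and a number only names a library. No pair of libraries held identical values. The members, the role groups and the lists were chosen with earlier results of these data known. The naming rule took the 5 resident markers, the 3 smallest p in each direction, the 3 most and 3 least abundant markers per length, 1 or more per role, and from other lists the genes past the threshold or the 2 with the smallest p; other genes named were chosen after their values were seen.

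Exons of Csf1r, Cx3cr1, F13a1, Folr2 and Itgam overlap another gene in GENCODE M21, so their counts depend on how shared reads were assigned.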

Additional observations from a re-analysis of the deposited data

Results flagged for a closer look

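A few libraries stood far from the others of their group. Of 74 sets of values checked (each marker and 2 summed levels in each group), 9 held a library separated from the rest by more than Dixon's criterion allows, where chance would give about 3.7. AAV-Null 4 was the highest control for F13a1 (60.0 CPM) and for the summed resident markers (145.1 CPM), and the lowest for Timd4 (1.37 CPM). AAV-Osm 1 was the highest of its group for Mrc1 (32.4 CPM), F13a1 (49.3 CPM) and Lyz2 (259.8 CPM). AAV-Osm 4 was the highest for Tyrobp (26.9 CPM) and Itgam (10.3 CPM), and AAV-Osm 5 the lowest for Trem2 (2.09 CPM).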

How the results depend on the processing

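The count of 0 markers past the threshold held in edgeR under every alternative run and in DESeq2; limma-voom with quality weights called 1 marker lower (Lyve1). Over all genes 16 passed, 53 in DESeq2, 170 in limma-voom with quality weights and 4 to 11 with 1 library left out. The resident median ran from -0.19 to 0.22 with 1 library left out. The median of the other markers was 0.21 with AAV-Null 3 and AAV-Null 4 both left out, and that of all genes -0.022 with total counts only. Of the 35 markers 11 kept the sign of their log2 fold change in all 20 alternatives, and 24 did not, in 74 of 699 values, none of them past the threshold. The cause of these turns was not tested. With limma-voom with quality weights the opposite sign was found for Adgre1 (0.050), Cd68 (0.32), Csf1r (0.14), Timd4 (-0.25), F13a1 (0.090), C1qb (0.12), Lyz2 (0.13), Fcgr3 (0.12), Trem2 (0.69), Ptprc (-0.095), Cd53 (-0.43), Lgals3 (0.19). With total counts only the opposite sign was found for Cx3cr1 (-0.017). With AAV-Null 3 and AAV-Null 4 both left out the opposite sign was found for Adgre1 (0.15), Cd68 (0.49), Csf1r (0.22), Folr2 (0.060), F13a1 (0.28), C1qa (0.006), C1qb (0.22), C1qc (0.060), Lyz2 (0.33), Fcgr3 (0.33), Tyrobp (0.13), Trem2 (0.85), Cd53 (-0.17), Aif1 (0.064), Lgals3 (0.35), Msr1 (0.052). With AAV-Null 4 and AAV-Osm 5 both left out the opposite sign was found for Cd68 (0.17), Csf1r (0.12), Timd4 (-0.062), F13a1 (0.23), C1qb (0.15), C1qc (0.043), Lyz2 (0.020), Fcgr3 (0.080), Tyrobp (0.038), Trem2 (0.61), Itgam (0.055), Cd53 (-0.23), Aif1 (0.048), Lgals3 (0.085). With the gene length offset the opposite sign was found for Cd68 (0.017), C1qc (0.008), Cx3cr1 (-0.019). With 1 library left out, the log2 fold change ran from -0.36 to 0.014 for Aif1, -0.43 to 0.076 for C1qb, -0.22 to 0.035 for C1qc, -0.15 to 0.23 for Cd14, -0.097 to 0.38 for Cd53, -0.22 to 0.17 for Cd68, -0.18 to 0.082 for Csf1r, -0.15 to 0.21 for Cx3cr1, -0.41 to 0.19 for F13a1, -0.52 to 0.038 for Fcgr3, -0.27 to 0.029 for Itgam, -0.14 to 0.39 for Laptm5, -0.43 to 0.034 for Lgals3, -0.18 to 0.044 for Mertk, -0.071 to 0.44 for Mrc1, -0.11 to 0.25 for Ptprc, -0.19 to 0.29 for Timd4, -0.37 to 0.47 for Trem2. With no turn of sign but moves of over 1.5 times, it ran from -0.38 to -0.026 for Adgre1, -0.39 to -0.048 for C1qa, 0.079 to 0.40 for Cd163, -0.33 to -0.015 for Ctss, 0.063 to 0.33 for Cybb, -0.34 to -0.12 for Fcer1g, 0.023 to 0.34 for Fcgr1, -0.57 to -0.069 for Folr2, -0.83 to -0.37 for Ly6c2, -0.53 to -0.017 for Lyz2, 0.11 to 0.33 for Mpeg1, -0.46 to -0.004 for Msr1, -0.66 to -0.22 for Spi1, -0.59 to -0.033 for Tyrobp. Leaving out Lyve1 and Mrc1 left the resident median at 0.13. Of the called genes outside the 35 markers, Ccl2 lost its call in 3 alternatives, Csf2rb2 in 12 and Csf2rb in 0. With the filter of at least 1 CPM on the mean, Ly6c2 was not tested. No paired analysis was possible because the labels carry no replicate numbers, and the numbers used here only name the libraries. Depth limits Ly6c2, whose counts fell to 4 in a library.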

Other observations

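Mast cells carry the member gene Fcer1g. Of 7 mast cell markers 5 were in the table and 0 passed in edgeR, while 4 were lower at an unadjusted p under 0.05 (3.09% of all genes were). The tryptase gene Tpsb2 was at 1.72 ± 0.520 CPM (SD, n = 4) in AAV-Null and 0.904 ± 0.249 CPM (SD, n = 5) in AAV-Osm, and the chymase gene Mcpt4 at 3.19 ± 1.65 and 1.49 ± 0.821 CPM. Cpa3 and Cma1 had log2 fold changes of -0.86 (SE 0.36) and -0.93 (SE 0.42), and Kit one of 0.064 (SE 0.34). The groups overlapped for every mast cell gene. Mcpt4 was at 1.8, 1.9, 3.7 and 5.3 CPM in AAV-Null 1 to 4 and at 0.28 to 2.4 CPM in AAV-Osm. Cma1 was at 1.5, 1.4, 3.1 and 4.5 CPM in AAV-Null 1 to 4 and at 0.66 to 2.4 CPM in AAV-Osm. For both, AAV-Null 1 and AAV-Null 2 lay inside the AAV-Osm range. These genes were singled out after their values were seen.

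Ccl8, another monocyte chemokine, was at 2.31, 0.659, 1.15 and 1.61 CPM in AAV-Null 1 to 4 and at 4.54, 1.25, 2.37, 3.40 and 3.70 CPM in AAV-Osm 1 to 5 (log2 fold change 1.12, SE 0.39, edgeR adjusted p = 0.644), and Ccl12 and Ccl7 had log2 fold changes of -0.84 (SE 0.33) and -0.54 (SE 0.26). They were chosen after their values were seen. Of 6 genes listed as platelet markers 5 were in the table and 0 passed. Itga2b, Ppbp, Gp1bb and Gp9 had positive log2 fold changes of 0.57 (SE 0.47), 0.62 (SE 0.63), 0.45 (SE 0.46) and 0.081 (SE 0.51). Pf4 alone was negative (-0.54, SE 0.22, unadjusted p = 0.0295 in edgeR). It was also the most abundant, with a control mean of 24.8 CPM beside 3.48 CPM for Ppbp. Among the controls Pf4 was highest in AAV-Null 4 (37.8 CPM), as were Folr2 and the other platelet genes, Itga2b, Ppbp, Gp1bb and Gp9. The cell source of the Pf4 RNA was not tested.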
